A study of Rattus norvegicus with 6 samples.

Results

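Cytosolic ribosomal protein genes encode the protein part of the ribosomes that translate nuclear messages. On the rat array they were taken as every target, the transcript an array probe was designed for, whose gene name is Rpl or Rps followed by a number, Rplp followed by a number, or Rpsa. Mitochondrial ribosomal proteins and the S6 kinases were left out. This gave 86 targets of 36410, read by 122 probes and carrying 79 gene names, of which 46 were large subunit names beginning Rpl, 2 were acidic stalk proteins (Rplp1 and Rplp2) and 31 were small subunit names. The rule reads gene names and no signal.

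The 6 arrays came from spinal cords of adult Lewis rats, fixed in formaldehyde and embedded in paraffin. MBP-specific T cells, which start an autoimmune inflammation of the central nervous system called EAE, were given on day 0 and antibody or PBS on day 4, and the animals were killed 24 hours later. Rats of the ENMO array had received T cells and NMO-IgG (antibody of a patient with neuromyelitis optica), those of EAEcoI T cells and control IgG, that is normal human IgG, and those of EAEcoP T cells and PBS. Rats of the arrays called NMO-IgG only and control IgG only had received these antibodies without T cells, and healthy controls were left untreated. Each array held pooled sections of 5 rats, or of 3 rats for the healthy control, so no group had a replicate array. ENMO, EAEcoP and control IgG only lay on slide 1, and the other 3 arrays on slide 2, each slide scanned once. In such bulk tissue, fewer cells of a type and less RNA per cell cannot be told apart.

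Ribosomal protein messages are among the most abundant of a cell. Most begin with a C and a run of pyrimidines, the 5' terminal oligopyrimidine (TOP) tract, through which mTOR signalling adjusts their translation together. The proteins are needed in equal numbers per ribosome, while several, such as Rpl5 and Rpl11, which bind the p53 regulator Mdm2, also act outside it.

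The share of spots well above background, a mark set by the scanner software, was 44.5% (ENMO), 54.1% (EAEcoI) and 60.2% (EAEcoP) with T cells, and 40.0% (NMO-IgG), 35.4% (control IgG) and 41.7% (untreated) without. Of the ribosomal protein targets, 85 exceeded background so on 1 array or more and 62 on all 6, and Rpl22l1, a paralogue of Rpl22, on none. None of their spots was saturated. Myelin and oligodendrocyte genes marked the tissue: all 13 targets of that list were measured, 11 of them on every array, and their summed signal lay between 2446 in ENMO and 6040 in EAEcoP. Neuron markers had 12 of 14 targets measured and 3 on every array, and astrocyte markers had 10 of 11 measured and 2 on every array.

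Signals are given as normalized signal intensity (NSI), in arbitrary units, quantile-normalized over the 6 arrays, with 1 probe per target, the brightest. Since probes differ in how well they bind, levels of different genes are not compared. In the median of these genes the arrays called EAEcoI and EAEcoP stood apart from the others, at opposite ends. The median NSI over the 85 targets was 174 (ENMO), 106 (EAEcoI) and 314 (EAEcoP) with T cells, and 182 (NMO-IgG), 193 (control IgG) and 194 (untreated) without. Over all 24960 targets that exceeded background on any array, the medians lay between 29.1 and 30.4. EAEcoI thus held the lowest median of these 85 targets and EAEcoP the highest, while the medians of the 3 arrays without T cells lay close together.

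Among the 85 targets, EAEcoI was the lowest array for 38, or 44.7%, against 12.9% of all targets. NMO-IgG only was the lowest for 23, or 27.1%, against 16% of all targets. Control IgG only was so for 8 (9.41%, all targets 15.4%) and healthy control for 5 (5.88%, all targets 13.9%). EAEcoP was the highest array for 43, or 50.6%, against 30.1% of all targets. Set against each target's own mean over the 6 arrays, on the log2 scale, the median ribosomal protein target stood at −0.60 in EAEcoI, 0.71 in EAEcoP and 0.23 in ENMO. Without T cells it stood at −0.14 with NMO-IgG and 0.10 with control IgG, while healthy control had −0.03. For all targets these medians lay between −0.12 and 0.08. The 85 include members that exceeded background on few arrays, and on EAEcoP 84 of all 86 did so. For the 62 measured on all 6 arrays the medians were 0.34 (ENMO), −0.94 (EAEcoI) and 0.21 (EAEcoP) with T cells. Without T cells they were 0.02 (NMO-IgG), 0.25 (control IgG) and 0.09 (untreated), so EAEcoP did not hold the highest of these medians. Set against the mean of the other 5 arrays, the 62 had medians of 0.25 in EAEcoP, 0.41 in ENMO and −1.12 in EAEcoI. All 11103 targets measured on every array had −0.63, 0.18 and 0.01. With 1 array a group, neither the low EAEcoI array nor the high EAEcoP median of the 85 can be set against a spread between replicates.

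Members that varied most did so through these arrays. Rps26, a small subunit protein, read 246 NSI (ENMO), 8.12 (EAEcoI) and 849 (EAEcoP) with T cells, and 43.3 (NMO-IgG), 86.4 (control IgG) and 52.0 (untreated) without, a 105-fold range and the largest standard deviation (SD) over arrays, 2.29 log2 units, of the 62 targets measured everywhere. Rpl34 followed, with 569 NSI (ENMO), 14.8 (EAEcoI) and 1237 (EAEcoP) with T cells, and 201 (NMO-IgG), 243 (control IgG) and 106 (untreated) without. Both were lowest in EAEcoI and highest in EAEcoP, by 105-fold and 83.8-fold. Rps29, Rpl17 and Rpl26, the next of the 5 most variable, also had their lowest signal in EAEcoI and their highest in EAEcoP, by 29.7-fold, 35.8-fold and 22.2-fold.

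Rpl38, Rpl6, an Rps15 target and Rps10 were among the 5 steadiest targets measured on every array. Rpl38 read 152 NSI (ENMO), 100 (EAEcoI) and 120 (EAEcoP) with T cells, and 124 (NMO-IgG), 127 (control IgG) and 176 (untreated) without, an SD of 0.28 log2 units. Rpl6 had an SD of 0.29 and Rps10 of 0.44. EAEcoI was still the lowest array for Rpl38 and Rps10. Over the 62 targets the median SD was 0.997 log2 units, against 0.69 for the 11103 targets measured on all arrays.

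**Figure D1:**
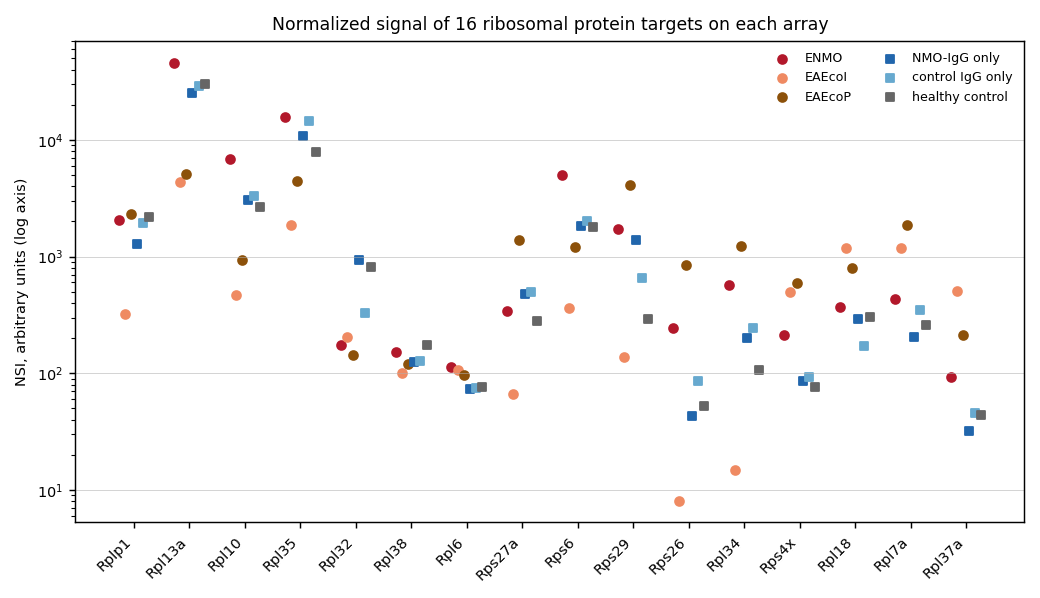
Normalized signal intensity (NSI, arbitrary units, log axis) of 16 ribosomal protein targets, with a circle for each array with T cells and a square for each array without. Rps26 and Rpl34 spread from 8.12 and 14.8 in EAEcoI to 849 and 1237 in EAEcoP, while the 6 values of Rpl38 lie between 100 and 176, and Rps4x, Rpl18, Rpl7a and Rpl37a have their 3 highest values in the arrays with T cells.

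The stalk gives a measure of the error within an array, because the probe of Rplp1, an acidic protein that recruits elongation factors, was printed in 10 spots. Rplp1 read 2070 NSI (ENMO), 320 (EAEcoI) and 2323 (EAEcoP) with T cells, and 1268 (NMO-IgG), 1949 (control IgG) and 2171 (untreated) without. The SD between its 10 spots, before normalization, was 0.15 log2 units in EAEcoP and between 0.41 and 0.58 on the other 5 arrays. The EAEcoI spots ran from 8.01 to 9.64 on the log2 scale and did not overlap those of ENMO, from 10.19 to 11.47, or of EAEcoP, from 11.02 to 11.46. They overlapped those of NMO-IgG only, from 9.06 to 10.55, and of control IgG only, from 9.10 to 11.26. Those of healthy control, from 11.17 to 12.42, they did not overlap. As these ranges precede normalization, they also hold differences in overall brightness between arrays. The spread between spots covers 1 array and not rats or RNA extractions. Rplp2, its partner, read between 31.9 NSI in NMO-IgG only and 120 in control IgG only, with 56.7 in EAEcoI.

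The antibody comparisons set 1 array against 1 array and carry no test. In each of them the arrays lay on different slides, so antibody and slide cannot be told apart. A target was counted in a pair where it was well above background on both arrays. For NMO-IgG with T cells, the ENMO array was above EAEcoI for 52 of 72 ribosomal protein targets, with a median difference of 1.30 log2 units (quartiles −0.09 and 2.79). It was 0.58 with normexp background correction, 0.72 on mean signal, 0.59 with no filter and 0.53 in the deposited values. The median over all 15823 targets of this pair was 0.11. More than 2-fold higher in ENMO were 38 members, or 52.8%, against a background of 15.2% of all targets, and more than 2-fold lower were 8, or 11.1%, against 11.3%. The largest differences were those of Rpl34 (5.27), Rps26 (4.92), Rpl17 (4.19) and Rpl26 (3.91), and at the other end Rpl35a was lower in ENMO, by −2.93.

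Without T cells the same antibody gave another picture. NMO-IgG only was above control IgG only for 22 of 64 members, with a median of −0.18, against −0.04 over all 12094 targets of the pair. Of the members, 5 (7.81%) were more than 2-fold higher and 7 (10.9%) more than 2-fold lower, beside backgrounds of 7.54% and 11.7% of all targets, and so lay near the background. Rps2, Rpl39 and Rps29 were the members measured on all arrays that passed 2-fold in the same direction in both comparisons. Rps2 was higher by 2.08 log2 units in ENMO than in EAEcoI and by 1.27 in NMO-IgG only than in control IgG only. The same differences were 1.87 and 1.07 for Rpl39, and 3.64 and 1.07 for Rps29. The Rps2 values are those of the brightest of its 4 probes. Its other probes did not rise without T cells, with 1578, 128 and 64.9 NSI in NMO-IgG only against 1677, 131 and 194 in control IgG only. The share of all targets that passed both comparisons is not given here.

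The size and the sign of the difference of ENMO changed with the array set against it. Against NMO-IgG only, ENMO was higher by a median of 0.58 over 65 members, with 49 above 0, where all targets had −0.02. In that pair the antibody is the same, while T cells and slide differ and cannot be told apart. Against EAEcoP, on the same slide, ENMO had a median difference of −0.30 over 71 members, with 30 above 0, where all targets had 0.47. For control IgG with T cells, EAEcoI was below EAEcoP for most members, with a median of −1.09 over 77 targets against 0.27 for all 18367. Of the members 41, or 53.2%, were more than 2-fold lower in EAEcoI, where 19% of all targets were, and 2, or 2.60%, more than 2-fold higher, where 27.5% were. Without T cells, control IgG only and healthy control differed by a median of 0.06 over 67 members, against 0.11 over all 12606 targets, and 9 members (13.4%) were more than 2-fold higher and 2 (2.99%) lower, beside 11.7% and 7.94%. These comparisons share arrays, EAEcoI and control IgG only each standing in 2 of them.

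**Figure D2:**
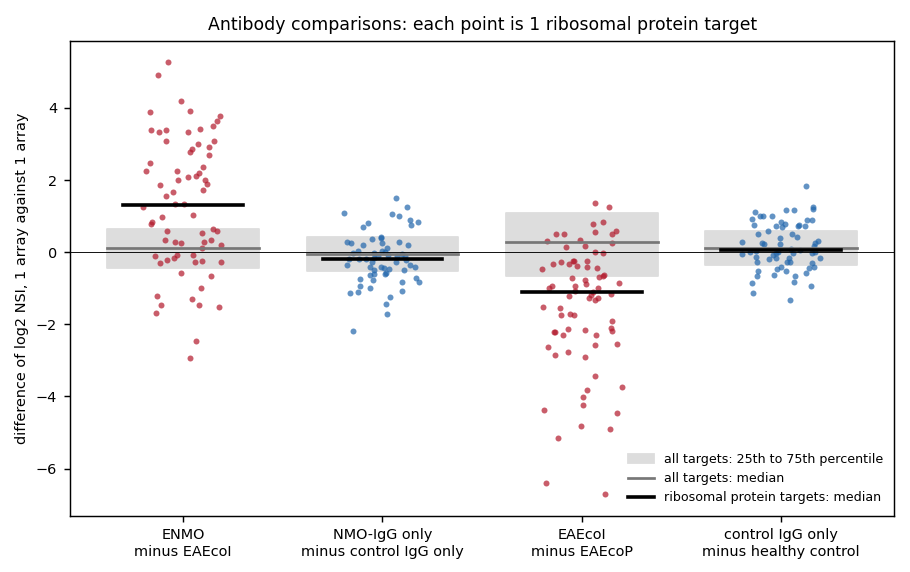
Difference of log2 NSI between 2 arrays for the 4 antibody comparisons. Each point is a ribosomal protein target measured on both arrays, the black bar their median, the grey band the 25th to 75th percentile of all targets measured on both, and the grey line their median. The points reach from −2.93 to 5.27 for ENMO minus EAEcoI and down to −6.71 for EAEcoI minus EAEcoP, with medians of 1.30 and −1.09, and centre near 0 in both comparisons without T cells.

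Other genes of translation were read for the same pairs. Among translation factors, which bring transfer RNAs and messages to the ribosome, 8 of 15 targets were more than 2-fold lower in EAEcoI than in EAEcoP and none higher. Eef1a1, the elongation factor that delivers transfer RNAs, was measured on 3 arrays and read 17.4 NSI in EAEcoI, 100.4 in EAEcoP and 34.4 in ENMO. Of 10 reference gene targets 8 were more than 2-fold lower in EAEcoI than in EAEcoP and none higher. Mitochondrial ribosomal proteins, with a median of 0.07 over 36 targets, had 10 targets more than 2-fold lower in EAEcoI and 6 higher.

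Over all targets of this pair 27.5% were more than 2-fold higher and 19% lower. Of the ribosome biogenesis factors, none of 11 was more than 2-fold lower in EAEcoI and 3 were more than 2-fold higher. Npm1, which shuttles ribosomal parts out of the nucleolus, read 452 NSI in EAEcoI, 126 in EAEcoP and 141 in ENMO. Of the mTOR and S6 kinase list, 3 of 9 targets were more than 2-fold lower in EAEcoI and 1 higher. Rps27a, a member made as a fusion with ubiquitin, read 66.3 NSI in EAEcoI, 1373 in EAEcoP and 343 in ENMO. Fau, which yields a small subunit protein fused to a ubiquitin-like one, read 3053 in EAEcoI, 2137 in EAEcoP and 10300 in ENMO. Both were thus lower in EAEcoI than in ENMO, but their order between EAEcoP and ENMO was opposite.

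Different probes of 1 gene did not always share this pattern, and the letters of a probe went with it. Messages end about a hexamer, AATAAA or ATTAAA, that directs cleavage and addition of the poly(A) tail, so a probe that holds the hexamer can lie at the 3' end. Searched on the probe strand, it was found in 18 of the 122 member probes (14.8%) and in 6.81% of all 41012 probes, the 2 spellings sharing no overlap. A match is one of letters, and whether a probe lies at the 3' end of its message was not mapped. The division into probes with and without it was made after the values had been seen. For Rpl13 and Rpl26, which had both kinds of probe, 30 bases around the hexamer are shown, with the hexamer in capitals, each followed by the probe without it.

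Rpl13, with hexamer: ctggagagttgtAATAAAttttccataaag
Rpl13, other probe: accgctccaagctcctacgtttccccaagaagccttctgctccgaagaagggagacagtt
Rpl26, with hexamer: tgcccagttttcATTAAAgactgcttaagt
Rpl26, other probe: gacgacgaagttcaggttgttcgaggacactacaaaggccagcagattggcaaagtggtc

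The Rpl13 probe with the hexamer read 1082 NSI (ENMO), 158 (EAEcoI) and 3005 (EAEcoP) with T cells, and 676 (NMO-IgG), 813 (control IgG) and 338 (untreated) without. Its other probe stayed within a narrow band, at 418 NSI (ENMO), 516 (EAEcoI) and 340 (EAEcoP) with T cells, and 411 (NMO-IgG), 309 (control IgG) and 271 (untreated) without. EAEcoI was therefore the lowest array by the first probe and the highest by the second. For Rpl26, the probe with the hexamer in EAEcoI stood 3.48 log2 units below the mean of the other 5 arrays (−3.48) and the other probe at −0.44. For Rps28 the values were −2.46 and −1.69, so both of its probes were low in EAEcoI.

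Over the 16 member probes with the hexamer that were well above background on all 6 arrays, EAEcoI was below the mean of the other 5 arrays in all 16, with a median of −2.49 and a range from −4.46 to −0.72. Over the 63 member probes without it, EAEcoI was below in 46, with a median of −0.83 and a range from −3.23 to 2.95. Among all probes the medians were −0.69 for 676 with the hexamer and 0.04 for 10996 without. EAEcoP had the highest median in the member probes with the hexamer, 2.19 above the mean of the others, against 0.15 without, and ENMO stood at 1.32 against 0.26. The healthy control lay below the others in these probes, at −0.63 against 0.11.

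Within the 8 genes that had both kinds of probe measured on every array, the probe with the hexamer was lower in EAEcoI, relative to the other arrays, than the probe without in 8 of 8, with a median of −1.53 log2 units between the kinds. In 57 other targets with both kinds, it was lower in 36, or 63.2%, with a median of −0.61. In EAEcoP the hexamer probes of the 8 genes stood higher by a median of 2.26, with 2 exceptions, Rpl37a and Rps2. Since the brightest probe stood for each target, and hexamer probes were often the brighter, the choice of probe enters the levels above. The 5 most variable members, Rps26, Rpl34, Rps29, Rpl17 and Rpl26, were all read by hexamer probes. The other Rpl26 probe ran only from 43.7 NSI in EAEcoI to 85.5 in healthy control. Under the mean over all probes of a target, the median difference of ENMO from EAEcoI was 1.03.

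**Figure D3:**
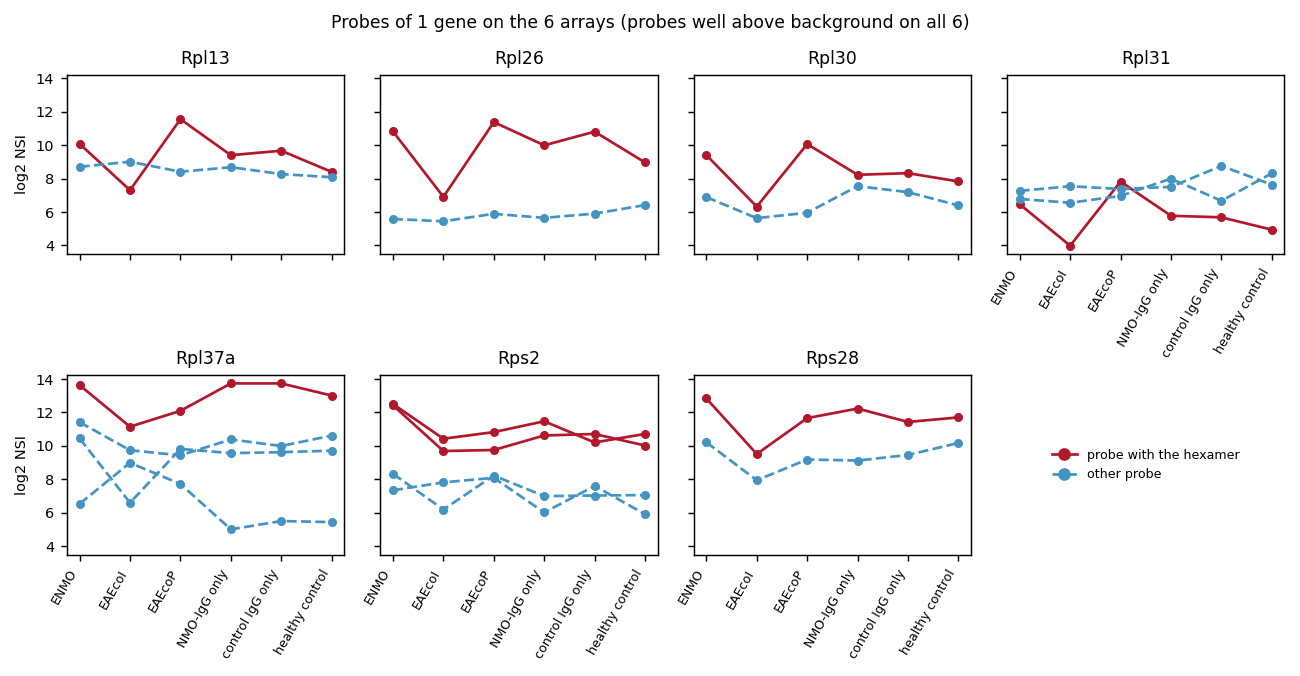
Log2 NSI on the 6 arrays of the probes of 7 ribosomal protein genes that have probes with (solid red) and without (dashed blue) a poly(A) hexamer, each line being 1 probe. The red lines dip at EAEcoI in every panel, from −0.61 to −3.09 log2 units further than the mean of the blue lines of the same gene.

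Some probes carried the gene name but ran against its message. In the coordinates of the scanner tables, 4 names had a pair of probes of opposite direction on the same chromosome, Rpl37, Rpl37a, Rps15 and Rps25. For Rps25 the probes are exact reverse complements over 60 bases. The Rps25 pair is shown first, then the reversed probes of Rpl37 and Rps15, designed on expressed sequence tags.

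Rps25, forward: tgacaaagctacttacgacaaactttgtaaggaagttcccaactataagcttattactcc
Rps25, reversed: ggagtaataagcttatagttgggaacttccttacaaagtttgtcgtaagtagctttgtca
Rpl37, reversed: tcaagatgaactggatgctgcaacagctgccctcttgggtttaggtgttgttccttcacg
Rps15, reversed: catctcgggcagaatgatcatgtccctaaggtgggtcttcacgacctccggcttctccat

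Both Rps25 probes were dim, the forward one well above background on 3 arrays and the reversed one on 1. The reversed Rpl37 probe was well above background everywhere, with 2203 NSI (ENMO), 463 (EAEcoI) and 792 (EAEcoP) with T cells, and 668 (NMO-IgG), 653 (control IgG) and 798 (untreated) without. The forward Rpl37 probe read 3376 NSI (ENMO), 318 (EAEcoI) and 914 (EAEcoP) with T cells, and 1540 (NMO-IgG), 1578 (control IgG) and 2491 (untreated) without. Both Rpl37 probes were thus highest in ENMO and lowest in EAEcoI. The reversed Rps15 probe lay between 219 and 394 NSI, and was among the 5 steadiest targets. These reversed targets carry the gene name and were kept among the 86.

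The T cell comparison set the 3 arrays with T cells against the 3 without, whose rats differed also in antibody. No member of the 85 passed an adjusted p of 0.05 in limma, nor did any of the 24960 targets (0% called). At an unadjusted p under 0.05, 15 members (17.6%) were higher with T cells, against 8.2% of all targets, and 1 (1.18%) was lower, against 3.12%. The 3 arrays of each side did not overlap for 13 members higher with T cells (15.3%, background 10.9%) and 2 lower (2.35%, background 7.04%). The median difference over the 85 members was 0.03 log2 units, from −1.87 to 3.46, against −0.02 for all targets. Small subunit targets had a median of 0.28 over 33 and large subunit targets of 0.02 over 50. Of the 15, 7 were well above background on no array without T cells, as were 5 of the 13. These had to be higher with T cells to be tested, so the counts are no support for a difference. Leaving out EAEcoI, the non-overlapping higher members numbered 26, beside 16.6% of all targets, and the median became 0.47. Leaving out ENMO, the lower members numbered 20, beside 17.6% of all targets.

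Rps4x, the X-linked form of a small subunit protein, had the smallest p of the members. It read 214 NSI (ENMO), 498 (EAEcoI) and 595 (EAEcoP) with T cells, and 86.1 (NMO-IgG), 92.5 (control IgG) and 76.9 (untreated) without. Its difference was 2.23 log2 units (SE 0.56, limma unadjusted p = 0.00279, adjusted p = 0.214). The probe behind it holds no hexamer and is shown with that of Rpl32, the member lowest with T cells.

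Rps4x: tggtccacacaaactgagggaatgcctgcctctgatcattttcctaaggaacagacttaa
Rpl32: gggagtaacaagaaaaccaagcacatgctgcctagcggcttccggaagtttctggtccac

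By their brightest probes, Rpl7a and Rpl18 of the large subunit also had their 3 highest values in the arrays with T cells. Rpl7a was read by 2 targets, with differences of 1.91 (SE 0.64) and 1.89 (SE 0.59) and limma adjusted p of 0.317 and 0.285. The first of these read 435 NSI (ENMO), 1193 (EAEcoI) and 1872 (EAEcoP) with T cells, and 203 (NMO-IgG), 348 (control IgG) and 261 (untreated) without. Rpl18 read 369 NSI (ENMO), 1195 (EAEcoI) and 790 (EAEcoP) with T cells, and 289 (NMO-IgG), 173 (control IgG) and 305 (untreated) without, a difference of 1.51 (SE 0.60, limma adjusted p = 0.399). Their second probes did not share this order. That of Rpl7a was lowest in EAEcoI, with 24.2 NSI against 45.2 to 413 on the other arrays, and that of Rpl18 was highest in healthy control, with 1462 NSI against 45.5 to 214 with T cells. Rpl6 separated too and differed by 0.50 (SE 0.48, limma adjusted p = 0.687), with values from 96.4 to 114 NSI with T cells and from 72.6 to 75.5 without.

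Rpl37a showed how far targets of 1 name could part. The target XM_343587 read 92.6 NSI (ENMO), 508 (EAEcoI) and 211 (EAEcoP) with T cells, and 32.2 (NMO-IgG), 45.4 (control IgG) and 43.5 (untreated) without, a difference of 2.43 (SE 0.67, limma adjusted p = 0.251). The target NM_001100994 differed by −1.20 (SE 0.68, limma adjusted p = 0.521), and read 12708 NSI in ENMO, 2268 in EAEcoI and 4379 in EAEcoP. Of 16 genes with at least 2 probes measured on all arrays, 8 had probes whose T cell differences were of opposite sign, and the median range between probes of a gene was 0.72 log2 units.

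Rpl32 read 174 NSI (ENMO), 203 (EAEcoI) and 143 (EAEcoP) with T cells, and 926 (NMO-IgG), 328 (control IgG) and 819 (untreated) without, a difference of −1.87 (SE 0.57, limma adjusted p = 0.281). Its 3 arrays with T cells lay below the other 3. Rpl26l1, a paralogue of Rpl26, was the other such member and was not well above background in EAEcoP. Rpl13a, a member that also leaves the ribosome as part of an interferon-controlled complex, gave the highest signal of any member probe, with 45870 NSI (ENMO), 4341 (EAEcoI) and 5117 (EAEcoP) with T cells, and 25366 (NMO-IgG), 28965 (control IgG) and 30332 (untreated) without. ENMO was above the arrays without T cells and the other 2 were below, so the sides overlapped.

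Of the 13 members higher with T cells, 6 were well above background on all arrays. Of the rest, 5 (Rpsa, Rpl15, Rps7, Rpl23a and Rpl24) were above background on no array without T cells. These had to be higher with T cells to be tested, so their folds and p-values are no support for a difference. Rpsa, the laminin receptor protein of the small subunit, was measured on the 3 arrays with T cells, at least 4.00-fold higher against the lowest signal well above background (limma adjusted p = 0.241). Rpl15, Rps7 and Rpl23a were each measured on 2 of them and Rpl24 on 1, and no fold is given. Rps9 and Rpl35a were measured on 1 and 2 arrays without T cells and differed by 3.11 and 2.42 log2 units. Leaving out ENMO, Rpl35a was called, with a difference of 3.31 (SE 0.55, limma adjusted p = 0.0495), as were 168 of all targets. Rpl7l1, a paralogue of Rpl7, overlapped between sides by the measured signal and was above background on the 3 arrays with T cells alone, while its other probe was so on no array.

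The other members picked by name overlapped between the sides. Rps6, the substrate of the S6 kinases, read 4957 NSI (ENMO), 362 (EAEcoI) and 1196 (EAEcoP) with T cells, and 1829 (NMO-IgG), 2034 (control IgG) and 1799 (untreated) without. Rpl10, a large subunit protein at the subunit interface, read 6861 NSI (ENMO), 464 (EAEcoI) and 928 (EAEcoP) with T cells, and 3080 (NMO-IgG), 3297 (control IgG) and 2647 (untreated) without. In both, ENMO lay above and the other 2 arrays with T cells below all arrays without. Rps3, with 34.4 to 124 NSI, Rps19, with 44.1 to 100, Rpl11, with 8.01 to 36.8, Rpl22, with 26.3 to 98.5, Rps14, with 16.0 to 193, and Rpl3l, with 26.2 to 123, overlapped too. Rpl3, Rpl4 and Rpl5 were well above background on 1, 1 and 2 arrays, and Rps18 on 4. Rplp0, under its older name Arbp, was well above background on 1 array, and read 16.5 NSI in EAEcoP and 2.85 to 6.92 elsewhere.

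Dim and bright members parted in this comparison. The 28 members with a mean log2 NSI under 6 had a median T cell difference of 0.39, the 31 members between 6 and 9 of 0.03, and the 26 members over 9 of −0.57. All targets in these bins had 0.08, −0.21 and −0.18. The dim bin holds members above background only on arrays with T cells, such as Rpl15, Rpl23a and Rpl24. These had to be higher there to be tested, so the median of the dim bin is no support for a difference. Over the 62 members measured on all arrays the median was −0.21, against −0.29 for all 11103 such targets. EAEcoP, on which 84 of 86 members were well above background, was the array highest for most dim members.

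**Figure D4:**
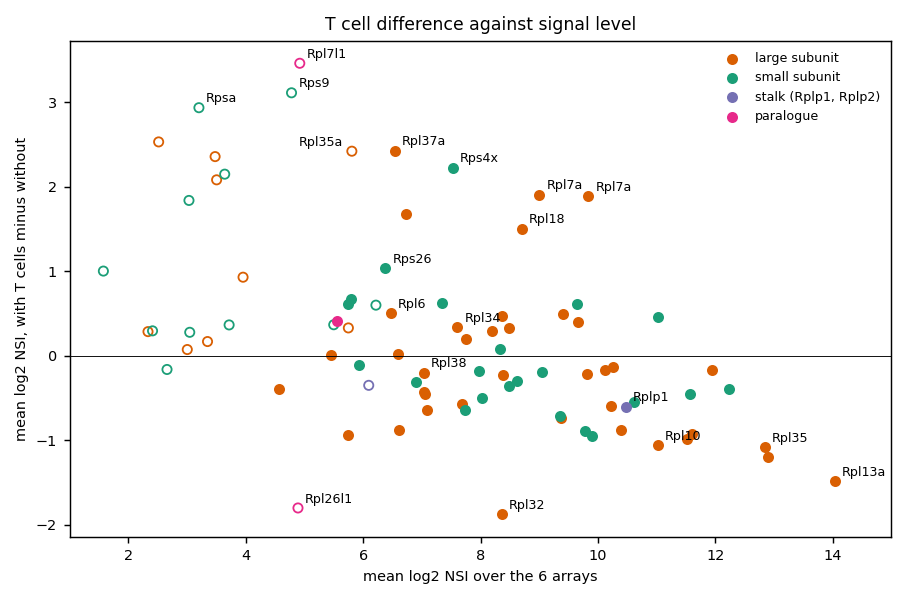
T cell difference of log2 NSI (mean of 3 arrays with T cells minus mean of 3 without) against the mean log2 NSI over the 6 arrays, 1 point per target. Filled points were well above background on all 6 arrays and open points on fewer, so their differences rest partly on signals near background. Colours mark the subunit, stalk and paralogue targets. Rpl13a, farthest to the right, lies at −1.48, and Rpl7l1 at 3.46 is the highest.

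No marker of immune cells passed an adjusted limma p of 0.05. Of 17 myeloid targets 7 were higher with T cells at an unadjusted limma p under 0.05 and 1 lower, beside 8.2% and 3.12% of all targets. Their summed NSI was between 4666 and 16110 with T cells and between 2602 and 4418 without, and was carried by 1 target of Tyrobp, a signalling adaptor of myeloid cells, with 14040 (ENMO), 4633 (EAEcoI) and 2516 (EAEcoP) against 1247 to 2653 without T cells. Of 9 T cell targets 2 were higher at an unadjusted p under 0.05, Cd8a and Cd247, with sums between 1325 and 2781 against 1016 and 1151. Cd3d, which made up most of these sums, was measured on every array, and Cd3e, Cd2 and Cd28 on none. Of the targets counted higher, Itgam and Cd8a exceeded background on 1 array, Aif1 and S100a9 on 2 and Lyz on 3. The target counted lower, of S100a8, did so on 1. Such targets were tested only because they were high on few arrays, so these counts are no support for a difference. Skeletal muscle targets, 6 in number, had 1 higher. The part of these cells in the ribosomal protein differences was not tested.

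The slide was a further division. The median member was 0.63 log2 units higher on slide 1 than on slide 2, with 72 of 85 above 0, where all targets had −0.05. The slides did not overlap for 14 members higher on slide 1 (16.5%, background 7.58%) and for none higher on slide 2 (background 8.13%). At an unadjusted limma p under 0.05, 11 members were higher on slide 1 (12.9%, background 5%) and none lower (background 4.21%), and no member passed after adjustment. The largest slide differences with all arrays measured were those of Rps26 (3.31), Rpl34 (3.03) and Rpl17 (2.62). Slide 1 held ENMO and EAEcoP, and slide 2 EAEcoI, so among arrays with T cells the slide and the array cannot be told apart. Without EAEcoI the median slide difference was 0.37.

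Within slide 1, ENMO and EAEcoP stood above control IgG only by a median of 0.38 over the members. Within slide 2, EAEcoI stood below the mean of NMO-IgG only and healthy control, with a median of −0.61. The T cell difference of the members therefore had opposite signs on the 2 slides, where all targets had −0.02 and 0.00.

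The starts of the members' messages, which the arrays do not read, were taken from RefSeq for GRCr8. Of 79 member names 64 matched an entry. On the sense strand, a C followed by at least 4 pyrimidines, beginning within 5 bases of the annotated start, was present in 38 of 64 members (59.4%) and in 17.0% of all 27457 starts. The letters CTTTC, from 5 bases before to 10 after the start, were in 26.6% of members and 1.67% of all. Both searches can match the same bases. The 4 starts below show the tract in capitals, in windows from 10 bases before the start.

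Rpl10, chrX:157205840-157205869, plus strand: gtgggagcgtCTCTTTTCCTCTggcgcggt
Rpl31, chr9:49143101-49143130, plus strand: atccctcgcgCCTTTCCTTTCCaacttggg
Rplp1, chr8:71290853-71290882, minus strand: cgcatgtgatCCTTTCCTCagctgccgcca
Rps7, chr6:50999426-50999455, minus strand: agagctgtgtCTCTTTCTaagccggcactc

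Of these 4 genes, Rpl10 and Rplp1 were lowest in EAEcoI, and Rps7 was well above background on 2 arrays, both with T cells. For Rpl31 the probe with the hexamer was lowest in EAEcoI, at 2.15 log2 units below the others (−2.15), and the probes without it stood at −0.48.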

How the data were processed

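Total RNA of spinal cord sections was converted to cDNA and amplified in 1 round by the authors, and hybridised in 1 colour (Cy3) to whole rat genome arrays. The authors deposited spot tables of Agilent Feature Extraction 10.1.1.1 and a table of intensity per target, both as background-corrected intensity without normalization between arrays. Of single-spot targets, 100% of the deposited values lay within 0.1% of the spot's intensity. The methods state quantile normalization and ratios of mean signal.

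From the corrected intensity, outlier spots were dropped, log2 spots averaged per probe, and arrays quantile-normalized in limma 3.58.1 under R 4.3.3. The brightest probe stood for a target. Targets that exceeded background on any array were tested (T cells against none, Benjamini-Hochberg adjusted over all), and 24960 passed. Within a side the arrays differ in antibody and each is 1 pool, so p-values measure only the spread between these arrays. Antibody pairs, of 1 array each, were given without a test. A difference is called past 2-fold at 1 log2 unit. The limma fit was tested on simulated data. The number of arrays limits precision.

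Members and gene lists were chosen with earlier results of these data known. Named genes were a fixed set with the paralogues, the 5 most and least different of those not overlapping, the 5 most and least variable, those past 2-fold in both NMO-IgG comparisons, and list genes. Other genes named (Rps9, Rpl35a, Rpl24, Rpl15, Rps7, Rpl23a, Rpl26l1, Rpl35, Tyrobp, Cd8a, Cd247, the second Rpl37a target, and the probe, strand and start examples) were chosen after their values were seen. Fused or renamed members, translation factors, biogenesis, mTOR and S6 kinase, mitochondrial ribosomal, cell type, muscle and reference gene lists were read. Alternatives were other scalings, background corrections, probe rules and filters, and arrays left out. Probe coordinates name no build and were not printed. Some genes and a probe sequence are not reported here.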

Additional observations from a re-analysis of the deposited data

Results flagged for a closer look

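The median NMO-IgG difference of the ribosomal protein targets was of opposite sign with and without T cells, at 1.30 log2 units (ENMO minus EAEcoI) and −0.18 (NMO-IgG only minus control IgG only). The difference between the 2 was not tested, since each group is 1 array. The pair with T cells sets slide 1 against slide 2, and the pair without sets slide 2 against slide 1. Antibody and slide therefore cannot be told apart. Within a slide, the median was −0.30 for ENMO minus EAEcoP and −0.02 for NMO-IgG only minus healthy control.

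The median control IgG difference was also of opposite sign, at −1.09 with T cells (EAEcoI minus EAEcoP) and 0.0618 without (control IgG only minus healthy control), again not tested. The EAEcoI array stands in both comparisons with T cells.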

How the results depend on the processing

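The labels give no replicate numbers that pair arrays. With antibody as a term, which sets each array with T cells against the 1 without that shares its antibody, or PBS against untreated, no member was called and the smallest adjusted p of a member was 0.138. Under quantile normalization the median T cell difference over all targets was −0.02, under 75th percentile scaling −0.10 and in the deposited values without normalization 0.69, and changes are read relative to these. Adjusted calls of members stayed at 0 in every alternative (slide as a block and the fit with antibody included) except without ENMO, where 1 was called, so with an array left out the count was 0 to 1. The median T cell difference of members was 0.74 in the deposited values, −0.61 within slide 2 and −0.36 to 0.47 with an array left out. It was −0.14 under 75th percentile scaling, −0.21 for targets measured on all arrays and −0.36 without EAEcoP, so its sign is not settled. All targets had −0.10, −0.29 and 0.03 in these settings. Members not overlapping and higher with T cells numbered 6 among those measured on all arrays, 22 in the deposited values and 12 to 26 with an array left out, where 14.2% to 19.3% of all targets did so. Those lower numbered 4 under 75th percentile scaling, 1 among those measured on all arrays and 0 in the deposited values. With an array left out they numbered 3 to 20, where 9.46% to 17.6% of all targets did so. Except with an array left out, the shares of all targets in these settings are not given. The counts there are therefore not read as a result about the members, and in the deposited values the median over all targets was itself 0.69. The within-slide medians became 1.24 on slide 1 and 0.10 on slide 2 in the deposited values, and −1.37 on slide 2 for members measured on all arrays. The ENMO minus EAEcoI median was 0.58 under normexp, 0.72 on mean signal, 0.59 with no filter, 0.53 in the deposited values and −0.30 with EAEcoP in place of EAEcoI. Control IgG without T cells gave −0.75 in the deposited values. The median SD over arrays was 0.51 under normexp. The median slide difference lay between 0.37 and 0.84 with an array left out. Hexamer probes in EAEcoI kept medians from −2.70 to −2.16. Of 37 named targets 15 changed the sign of their T cell difference under at least 1 of 6 alternatives, 13 of them with a difference under 0.5, and Rpl10 (−1.06) became 0.12 with the mean over its probes and 0.70 in the deposited values. Leaving out arrays for the non-overlap counts, EAEcoP in place of EAEcoI, other scalings within slides and between probes, and those of the hexamer were chosen after seeing the data. The causes were not tested.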
